A study of Homo sapiens with 15 samples.

Results

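The genes described here are 44 genes of autophagy and of the lysosome, chosen by gene symbol out of 26364 gene rows in a table of transcript abundance. All 44 were listed in the table, and 43 passed the filter for testing, a mean of 1 TPM or more over all libraries (TPM is abundance per length, scaled to a fixed library sum). They were followed in RPMI-8226, a human cell line established from multiple myeloma and labelled as wild type, treated with 100 nM KB528, an inhibitor of the lysine acetyltransferase activity of the coactivator p300, for 1, 3, 6 or 24 h. The comparison group was RPMI-8226 given DMSO, labelled as 0 h. Each of the 5 groups held 3 RNA sequencing libraries, 15 in all, and all groups shared the same line and growth medium. The DMSO libraries stand for 1 time only, so time in culture and KB528 cannot be told apart. The labels do not state separate cultures for the replicates of a group, and p-values therefore reflect only the variation among these libraries, which could be purely technical.

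Autophagy is the route by which a cell encloses its own material in a double membrane and delivers it to the lysosome. The ULK1 kinase complex and a lipid kinase complex with BECN1 start the membrane, ATG9A, ATG2A and the WIPI proteins supply it with lipid and mark it, and a ubiquitin-like conjugation system attaches proteins of the ATG8 family to it, where cargo receptors such as SQSTM1 bind. The lysosome is acidified by a proton pump, the V-ATPase, and holds cathepsins and glycosidases that digest the delivered material. TFEB and TFE3 are transcription factors that bind E-box motifs of the form TCACGTGA in promoters of many of these genes. Myeloma cells secrete large amounts of immunoglobulin, and plasma cells are known to depend on autophagy.

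The promoters were searched for that motif because it is the one by which TFEB and TFE3 are known to recognise lysosomal genes. RefSeq promoters of GRCh38.p14, each running 250 bases before to 50 after the start site, were matched for 37 of the 44 genes. CACGTG, the core on both strands, was found in 9 of 37 (24.3%), against 7.28% of all 27305 promoters. TCACGTGA, which contains CACGTG, was found in 6 of 37 (16.2%), against 1.01% of all promoters. All promoters include those of genes not tested here. The motif was searched because it is known from genes of this kind, so the higher share may come from the choice of genes. The 6 windows below are written 5′ to 3′ on the strand of the gene, with TCACGTGA in capitals. They are shown because they belong to the 6 genes with the full motif, whose levels are given further on.
ATG3 (chr3:112561943-112561983, minus strand): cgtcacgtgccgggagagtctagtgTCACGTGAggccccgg
ATP6V0D1 (chr16:67481185-67481242, minus strand): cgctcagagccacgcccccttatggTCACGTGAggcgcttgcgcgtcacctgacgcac
CTSA (chr20:45891284-45891341, plus strand): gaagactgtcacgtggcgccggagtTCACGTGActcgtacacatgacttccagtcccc
GAA (chr17:80101479-80101536, plus strand): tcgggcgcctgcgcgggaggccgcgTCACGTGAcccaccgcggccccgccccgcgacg
LAMP1 (chr13:113297185-113297242, plus strand): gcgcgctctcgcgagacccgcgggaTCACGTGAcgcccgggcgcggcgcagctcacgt
MCOLN1 (chr19:7522557-7522614, plus strand): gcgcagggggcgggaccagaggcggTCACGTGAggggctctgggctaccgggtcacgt
Counted with the first transcribed base as 0, the capitals lie at bases 4 to 11 in ATG3, -60 to -53 in ATP6V0D1, -26 to -19 in CTSA, -77 to -70 in GAA, -29 to -22 in LAMP1 and -42 to -35 in MCOLN1. GAA, LAMP1 and MCOLN1 each held 2 copies in the 300 bases searched, of which the first is in capitals. The genes differ in their values under KB528. None of the 6 was called at 1 h or 3 h, 4 were called higher at 6 h and 5 at 24 h. Of the 43 tested genes described here, these 6 among them, 60.5% and 76.7% were called higher at 6 h and 24 h. Of all tested genes 44.4% and 56.1% were. The 24 h calls of CTSA and ATP6V0D1 and the 6 h call of ATG3 ended under 3 of the scalings described below, and both LAMP1 calls under 1. ATG3, called higher at 6 h only, had log2 fold changes below 0 under 2 of them. Of the other motifs searched on both strands, TGACNNNGC was found in 10 of 37 promoters (27.03%), against 13.5% of all. TGAGTCA was found in 1 of 37 (2.70%, TFE3), against 5.04% of all. A match describes the letters in the window and does not show that a factor bound there.

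The 15 libraries had relative depths of 0.763 to 1.13 of DMSO replicate 1, read from steps in the low values, and 1 read per kilobase of transcript was worth about 0.0310 to 0.0458 TPM. Total depth was not given. Between 11616 and 12356 genes reached 1 TPM in a library, and spike-in RNAs took 9.35% to 16.6% of the TPM. Replicates of a group correlated across genes with r of 0.995 to 0.998. Of 9 plasma cell markers, 7 were well expressed in DMSO libraries (SDC1 at 243 ± 17.4 TPM, XBP1 at 545 ± 18.02 TPM), while SLAMF7 and IGLL5 were at 1.66 ± 0.147 and 1.78 ± 0.465 TPM. At 24 h all 9 were called lower than in DMSO libraries, SDC1 to 158 ± 2.85 TPM, and at 6 h 6 of 9 were, SDC1 to 98.2 ± 4.504 TPM. Of all tested genes 15.2% were called lower at 24 h and 24.5% at 6 h. XBP1 was called higher at 1 h and 3 h (log2 fold changes 0.20 and 0.35) and TNFRSF17 at 3 h (0.15). SDC1, CD38, PRDM1, JCHAIN, IGLL5 and SLAMF7 were called lower at 3 h. These marker calls are on the deposited scale only. The part of the markers in the results below was not tested. Of 8 markers of other cell types, CD3E, LYZ, COL1A1, PECAM1 and PTPRZ1 averaged under 1 TPM in every group, CD14 and MS4A1 were low, and the epithelial marker EPCAM was at 98.2 ± 2.74 TPM at 24 h, against 113 ± 3.11 TPM in DMSO libraries. EP300, which encodes p300, was at 48.4 ± 4.73 TPM at 6 h, against 22.1 ± 4.97 TPM in DMSO libraries. CREBBP, followed alongside it, was at 41.8 ± 3.03 TPM at 6 h, against 16.6 ± 3.40 TPM in DMSO libraries. Both were called higher at every time, where 15.01%, 24.9%, 44.4% and 56.1% of all tested genes were at 1, 3, 6 and 24 h. At 3 h the libraries of both overlapped those in DMSO. Changes are log2 fold changes of TPM + 1 from limma fitted to all 15 libraries, and a gene is called where its Benjamini-Hochberg adjusted p over 12002 tested genes was under 0.05. In such bulk libraries, fewer cells expressing a gene and less RNA per cell cannot be told apart.

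In DMSO libraries 3 lysosomal genes and 2 autophagy genes were the most abundant. The median of all 44 genes, the untested CTSL among them, was 32.8 TPM, against 15.9 TPM over all tested genes. PSAP, the precursor of the saposins that help lipid digestion, came first at 453 ± 27.1 TPM (SD, n = 3), followed by the protease CTSB at 365 ± 19.7 TPM, the cargo receptor SQSTM1 at 243 ± 7.497 TPM, the protease CTSD at 218 ± 14.9 TPM and GABARAP at 195 ± 4.74 TPM. The ranges of SQSTM1 (234 to 247 TPM) and CTSD (205 to 234 TPM) were separate but adjoining, and further down many neighbours overlapped. At the low end were GAA at 4.63 ± 0.586 TPM, ATG14 at 3.48 ± 0.138 TPM, TFEB at 3.48 ± 0.432 TPM and GABARAPL1 at 2.07 ± 0.208 TPM. ATG14 and TFEB did not differ beyond their spread. CTSL, a protease abundant in many tissues, was listed at 0 in 14 libraries and at 0.0846 TPM in KB528 1 h replicate 2, and was not tested. Its mean over all libraries was 0.00564 TPM, and the lowest means above the filter were 2.95 TPM for TFEB and 3.05 TPM for GABARAPL1.

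On the deposited scale few of the genes were called at 1 h, they were called in both directions at 3 h and mostly higher at 6 h and 24 h, as was much of the transcriptome. At 1 h of KB528, 7 of 43 were called higher and 0 lower, where 15.01% and 7.57% of all tested genes were called. At 3 h, 9 were higher and 12 lower, against backgrounds of 24.9% and 31.96%. At 6 h, 26 were higher and 5 lower, against 44.4% and 24.5%. At 24 h, 33 were higher and 2 lower, against 56.1% and 15.2%. The shares called higher were 16.3%, 20.9%, 60.5% and 76.7% at 1, 3, 6 and 24 h, on the scale of the deposited values near the background at 1 h and 3 h and above it at the later times. The genes were chosen with earlier results of these data known, and what that choice adds to these shares was not tested. The median log2 fold changes of the 43 genes were 0.065, 0.036, 0.18 and 0.30 at 1, 3, 6 and 24 h, beside 0.043, -0.042, 0.12 and 0.23 over all tested genes. Over the time course 42 of 43 were called by a moderated F test, against 93.6% of all genes, and ATG5 was the exception. The summed level of all 44 was 3487, 3340 and 3661 TPM in the DMSO libraries, 3692, 3725 and 3685 TPM at 1 h, 3667, 3637 and 3739 TPM at 3 h, 3972, 4158 and 4329 TPM at 6 h and 4016, 4017 and 3981 TPM at 24 h. The 6 h and 24 h sums all lay above the 3 DMSO sums. These sums are on the deposited scale and weigh abundant genes most. SQSTM1 alone averaged 243 TPM in DMSO libraries, 638 TPM at 6 h and 283 TPM at 24 h.

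**Figure D1:**
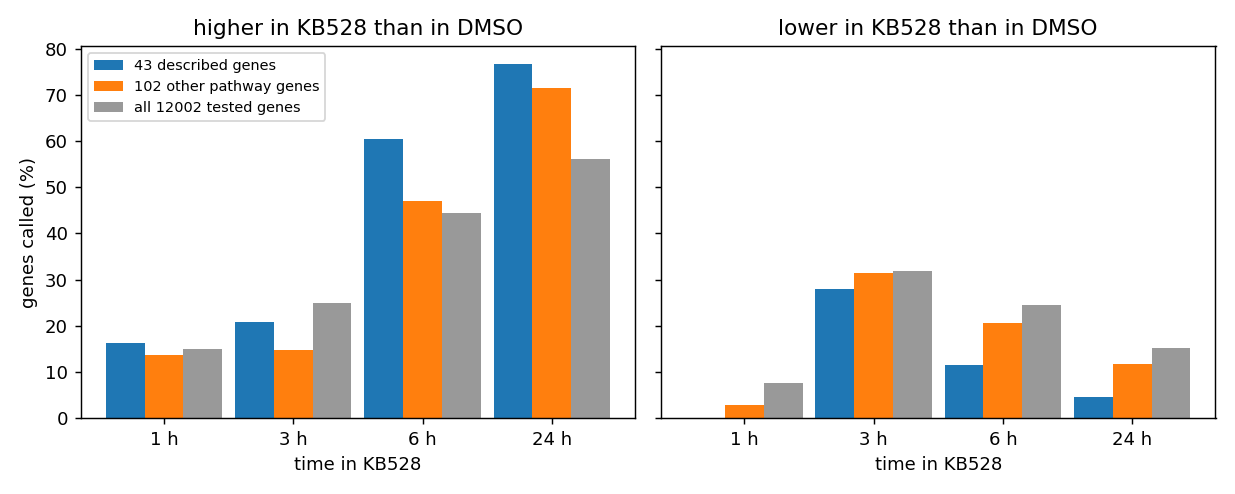
Share of genes called (adjusted p under 0.05, limma) as higher or lower in KB528 than in DMSO libraries at each time, for the 43 genes, for 102 other tested genes of the same pathways and for all 12002 tested genes; bars start at 0 and the y axis is in percent. The 43 genes reach 60.5% higher at 6 h and 76.7% at 24 h on the deposited scale, beside 44.4% and 56.1% of all tested genes.

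The counts depended on how libraries were put on a common scale and, at the early times, on single libraries. Median-ratio scaling moved the median of all genes by -0.15 at 6 h and -0.17 at 24 h, spike-in scaling moved it by -0.20 at 3 h and 0.17 at 6 h, and a correction for transcript length moved it by -0.11 at 6 h and -0.22 at 24 h. At 24 h the calls were 20 higher and 8 lower under median-ratio scaling, 19 and 9 with the length correction and 8 and 1 under spike-in scaling. The shares called higher at 24 h were then 46.5%, 44.2% and 18.6%, beside 38.5%, 33.5% and 20.3% of all tested genes. Of all tested genes 29.04%, 34.1% and 5.48% were called lower at 24 h. At 6 h the calls were 18 and 8, 18 and 10, and 16 and 0. The shares called higher at 6 h were 41.9%, 41.9% and 37.2%, beside 32.1%, 36.4% and 34.3% of all tested genes. Of all tested genes 38.2%, 35.2% and 8.29% were called lower at 6 h. At 3 h the calls were 13 and 12, 18 and 12, and 1 and 6, and with spike-ins left out of the total 17 and 10. The all-gene shares at 3 h were 27.2% and 35.2%, 30.5% and 33.6%, 3.42% and 21.02%, and 28.95% and 28.995%. At 1 h the calls were 7 and 1, 7 and 1, and 0 and 0. The all-gene shares at 1 h were 15.4% and 14.8%, 15.1% and 14.2%, and 2.90% and 1.02%. Calls kept under all of these settings are said below to hold under every scaling. At 1 h none of the 7 calls met this, while 7 of the 21 did at 3 h, 15 of the 31 at 6 h and 9 of the 35 at 24 h. With spike-in scaling set aside the numbers were 7, 19, 21 and 21. The step at which spike-ins were added is not stated, and spike-in sums varied within groups. As log2 ratios to their mean they were 0.094, -0.23 and -0.54 at 6 h and -0.26, 0.13 and 0.028 in DMSO libraries. Under spike-in scaling 348 of all tested genes were higher and 122 lower at 1 h, against 1802 and 908 as deposited. A call that ended there need not have a smaller value, as ATG16L1 at 1 h was at 0.47 or more under every scaling. Without DMSO replicate 3, the library highest of the 3 for 32 of the 43 genes, 14 genes were higher at 1 h and 14 at 3 h. Of 12002 tested genes 2898 and 3237 were then called higher, against 1802 and 2991 with all libraries.

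**Figure D2:**
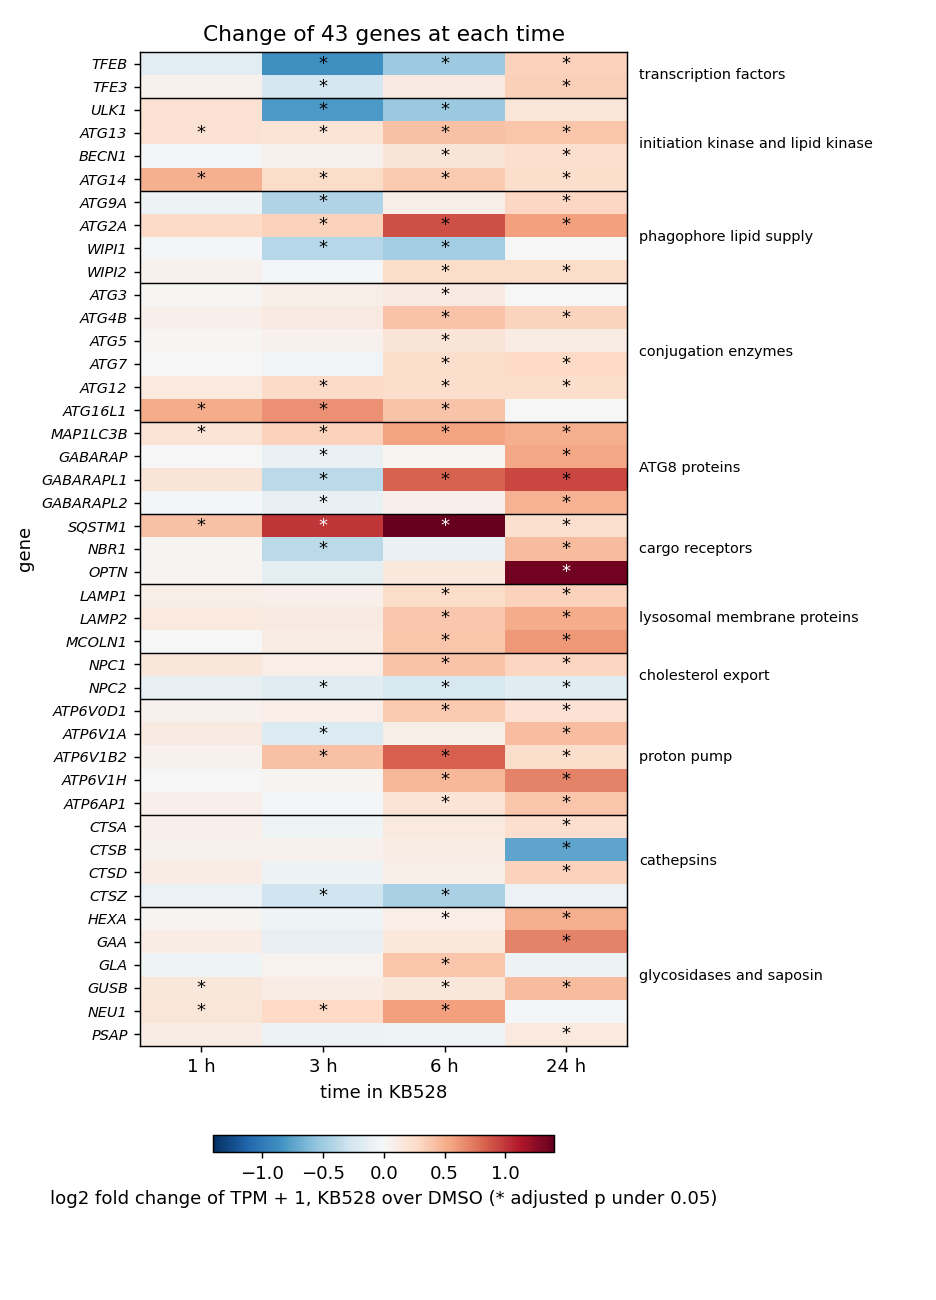
Log2 fold change of TPM + 1 (KB528 over DMSO, colour) of 43 genes at 4 times, grouped by role, with an asterisk where the adjusted p was under 0.05. SQSTM1 is strongest at 3 h and 6 h and OPTN at 24 h, TFEB and ULK1 are lower at 3 h and 6 h, and CTSB is lower at 24 h.

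Both transcription factors fell at 3 h and were above the DMSO level at 24 h. The DMSO libraries had TFEB at 3.06, 3.45 and 3.92 TPM, the 1 h libraries at 3.297, 3.18 and 2.63 TPM and the 3 h libraries at 1.44, 1.39 and 1.56 TPM. Later values were 1.66, 2.23 and 2.61 TPM at 6 h and 5.39, 4.24 and 4.17 TPM at 24 h. The 3 h and 6 h libraries all lay below the DMSO libraries and the 24 h libraries all above them. TFEB was lower at 3 h (log2 fold change -0.86 ± 0.12 (SE), -0.82 relative to the all-gene median, adjusted p = 1.48e-05) and 6 h (log2 fold change -0.51 ± 0.12 (SE), adjusted p = 0.00115), and higher at 24 h (log2 fold change 0.32 ± 0.12 (SE), adjusted p = 0.0219). The 3 h call held under every scaling and the 6 h call ended under spike-in scaling. The 24 h call held only with spike-ins left out of the total among the scalings, and ended without DMSO replicate 1 or without 24 h replicate 1. TFE3 measured 24.3, 22.6 and 27.8 TPM with DMSO, 26.3, 26.8 and 24.7 TPM after 1 h and 21.8, 18.6 and 22.3 TPM after 3 h of KB528. It measured 26.2, 27.2 and 28.4 TPM after 6 h and 30.5, 31.9 and 32.3 TPM after 24 h. TFE3 was lower at 3 h (log2 fold change -0.24 ± 0.075 (SE), adjusted p = 0.013) and higher at 24 h (log2 fold change 0.33 ± 0.075 (SE), adjusted p = 0.00096), and at 1 h and 6 h its libraries overlapped those in DMSO. Its 3 h call ended under spike-in scaling, without DMSO replicate 3 (log2 fold change -0.16) and without 3 h replicate 2 (-0.16), and its 24 h call ended under spike-in scaling and the length correction. Between 6 h and 24 h TFEB rose by 0.83 on the log2 scale, under every scaling.

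**Figure D3:**
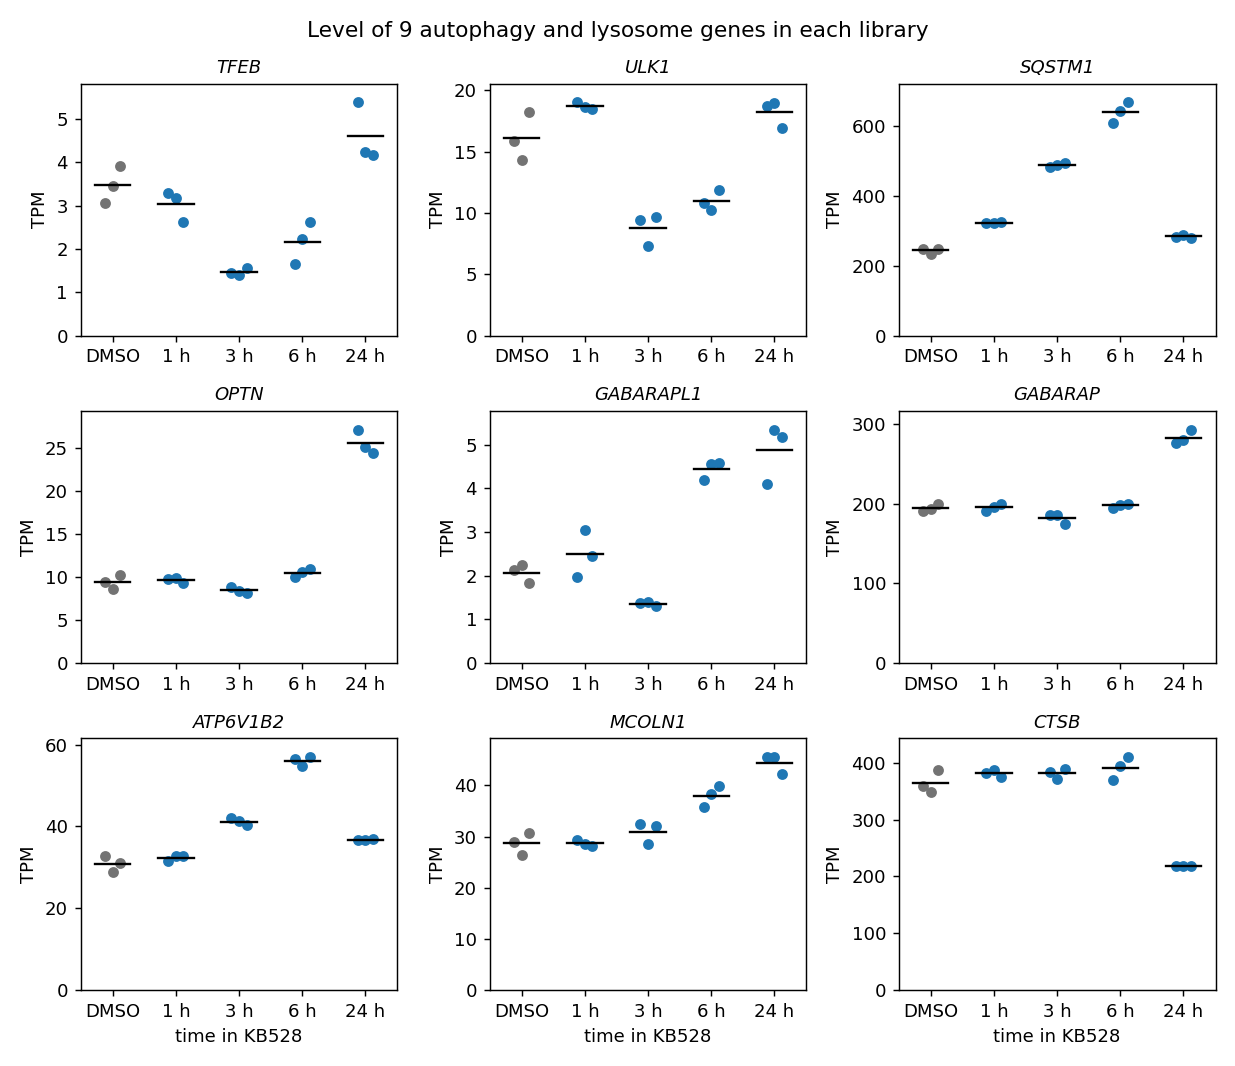
TPM of 9 genes in each of the 15 libraries, by time in KB528 with DMSO at the left; points are libraries, black lines are means of 3, and y axes start at 0. SQSTM1 lies between 607 and 666 TPM at 6 h and between 279 and 288 TPM at 24 h, OPTN is high only in the 24 h libraries, and CTSB is low only in those libraries.

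Of the genes that start the membrane, ULK1 fell while its partner ATG13 rose. In DMSO libraries ULK1 stood at 15.9, 14.3 and 18.3 TPM, and in 1 h libraries at 19.02, 18.7 and 18.5 TPM. It stood at 9.39, 7.31 and 9.68 TPM in 3 h, 10.8, 10.2 and 11.8 TPM in 6 h and 18.7, 18.9 and 16.9 TPM in 24 h libraries. The 3 h and 6 h libraries lay below every DMSO library, and the 24 h libraries overlapped them. ULK1, the kinase that initiates autophagy, was lower at 3 h (log2 fold change -0.81 ± 0.095 (SE), -0.77 relative to the all-gene median, adjusted p = 3.89e-06), a call that held under every scaling, and at 6 h (log2 fold change -0.52 ± 0.095 (SE), adjusted p = 0.000196), a call that ended under spike-in scaling. It rose again between 6 h and 24 h (log2 fold change 0.68, adjusted p = 1.33e-05). Values of ATG13 were 33.00, 31.8 and 36.7 TPM in DMSO and 39.1, 38.97 and 40.3 TPM in 1 h libraries. The 3 h libraries held 39.5, 37.6 and 39.2 TPM, the 6 h libraries 42.5, 45.6 and 47.97 TPM and the 24 h libraries 45.2, 44.5 and 44.4 TPM. ATG13, a scaffold of the ULK1 complex, was higher at all 4 times, among them 1 h (log2 fold change 0.22 ± 0.054 (SE), adjusted p = 0.0101) and 24 h (log2 fold change 0.39 ± 0.054 (SE), adjusted p = 1.34e-05), with the libraries of each treated group above those in DMSO. Its 6 h call (log2 fold change 0.41) held under every scaling, while at 1, 3 and 24 h the call ended under spike-in scaling, with a value of -0.025 at 3 h. ATG14 was at 3.61, 3.49 and 3.34 TPM in the DMSO libraries, 5.25, 5.198 and 5.54 TPM at 1 h and 3.77, 4.39 and 4.94 TPM at 3 h. At 6 h the 3 libraries were at 4.87, 5.03 and 4.45 TPM, and at 24 h at 4.62, 4.66 and 3.697 TPM. ATG14, which directs the lipid kinase to the forming membrane, was likewise higher at all times with no overlap with DMSO, most at 1 h (log2 fold change 0.50 ± 0.087 (SE), 0.46 relative to the all-gene median, adjusted p = 0.00077). The 1 h and 3 h calls ended under spike-in scaling and the 6 h call with the length correction. The 3 h call also ended without DMSO replicate 3 (0.23) or 3 h replicate 3 (0.18), and the 24 h call ended under median-ratio scaling, spike-in scaling and the length correction (-0.031) and without DMSO replicate 3, 24 h replicate 1 or 24 h replicate 2. BECN1, the scaffold of the lipid kinase complex, was higher at 6 h and 24 h (log2 fold changes 0.18 and 0.23), both calls lost under median-ratio and spike-in scaling and the 24 h call also with the length correction.

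The lipid supply genes divided. The DMSO libraries had ATG2A at 20.6, 17.5 and 24.2 TPM, the 1 h libraries at 24.8, 24.3 and 25.97 TPM and the 3 h libraries at 27.7, 21.9 and 29.2 TPM. Later values were 36.3, 38.96 and 43.3 TPM at 6 h and 31.3, 31.6 and 30.5 TPM at 24 h. ATG2A, which transfers lipid into the growing membrane, was higher at 6 h (log2 fold change 0.90 ± 0.11 (SE), 0.79 relative to the all-gene median, adjusted p = 2.39e-06) and 24 h (log2 fold change 0.57 ± 0.11 (SE), adjusted p = 0.000204), with no overlap with DMSO, and both calls held under every scaling. At 3 h it was called higher (log2 fold change 0.33 ± 0.11 (SE), adjusted p = 0.0168) although its libraries overlapped those in DMSO, and that call ended under spike-in scaling and without DMSO replicate 2, 3 h replicate 1 or 3 h replicate 3. ATG9A measured 40.5, 36.9 and 45.3 TPM with DMSO, 37.95, 38.9 and 39.4 TPM after 1 h and 29.6, 28.6 and 32.5 TPM after 3 h of KB528. It measured 40.4, 42.5 and 47.3 TPM after 6 h and 50.5, 49.6 and 50.1 TPM after 24 h. ATG9A, a membrane protein of the vesicles that seed autophagosomes, was lower at 3 h (log2 fold change -0.42 ± 0.070 (SE), -0.38 relative to the all-gene median, adjusted p = 0.000118), with no overlap with DMSO and under every scaling. At 24 h it was called higher (log2 fold change 0.29 ± 0.070 (SE), adjusted p = 0.00182), a call lost under median-ratio scaling, spike-in scaling and the length correction. In DMSO libraries WIPI1 stood at 20.6, 19.2 and 21.2 TPM, and in 1 h libraries at 19.8, 19.2 and 20.8 TPM. It stood at 15.2, 14.5 and 15.9 TPM in 3 h, 13.4, 13.96 and 15.4 TPM in 6 h and 21.8, 19.5 and 19.8 TPM in 24 h libraries. WIPI1, a lipid sensor at the forming membrane, was lower at 3 h (log2 fold change -0.40 ± 0.062 (SE), -0.35 relative to the all-gene median, adjusted p = 6.82e-05), under every scaling, and at 6 h (log2 fold change -0.49 ± 0.062 (SE), adjusted p = 5.70e-06), a call that ended under spike-in scaling. At 24 h its libraries overlapped those in DMSO. WIPI2, a related lipid sensor, averaged 69.4 ± 2.91 TPM at 6 h and 68.8 ± 1.52 TPM at 24 h, against 57.7 ± 2.75 TPM in DMSO libraries, and was called higher at both times (log2 fold changes 0.26 and 0.25), with the 24 h value at -0.018 under the length correction. Both WIPI2 calls ended under spike-in scaling and the length correction, and the 24 h call also under median-ratio scaling.

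All 6 conjugation genes were called higher at 6 h, where 44.4% of all tested genes were. The calls of 4 of them, ATG3, ATG5, ATG7 and ATG12, ended under median-ratio scaling, spike-in scaling and the length correction. ATG16L1, which places the conjugation machinery on the membrane, stood out in timing. Values of ATG16L1 were 10.5, 9.66 and 11.01 TPM in DMSO and 15.8, 15.1 and 15.2 TPM in 1 h libraries. The 3 h libraries held 16.7, 15.6 and 18.03 TPM, the 6 h libraries 13.2, 13.5 and 15.4 TPM and the 24 h libraries 11.2, 10.1 and 9.97 TPM. The 1, 3 and 6 h libraries all lay above the DMSO libraries and the 24 h libraries overlapped them. ATG16L1 was higher at 1 h (log2 fold change 0.52 ± 0.071 (SE), 0.48 relative to the all-gene median, adjusted p = 9.00e-05), 3 h (log2 fold change 0.64 ± 0.071 (SE), adjusted p = 2.17e-06) and 6 h (log2 fold change 0.40 ± 0.071 (SE), adjusted p = 0.000137), and fell by 0.40 on the log2 scale between 6 h and 24 h (adjusted p = 0.000164). The 6 h call and the later fall held under every scaling, and the 1 h and 3 h calls ended under spike-in scaling alone. ATG12, which is conjugated to ATG5, averaged 16.4 ± 0.346 TPM in DMSO libraries, 18.1 ± 0.504 TPM at 1 h and 19.6 to 19.9 TPM at the later times, and was called higher at 3, 6 and 24 h, each call ending under spike-in scaling and the 6 h and 24 h calls also under median-ratio scaling and the length correction (log2 fold changes 0.27, 0.25 and 0.25), with the 24 h value at -0.015 under the length correction. ATG4B, the protease that trims ATG8 proteins, was higher at 6 h (log2 fold change 0.40 ± 0.055 (SE), adjusted p = 1.18e-05), under every scaling, and at 24 h (log2 fold change 0.32), where the call ended under spike-in scaling. ATG7, the activating enzyme, was higher at 6 h and 24 h, calls that ended under median-ratio scaling, spike-in scaling and the length correction (log2 fold changes 0.24 and 0.27), with the 24 h value at -0.0057 under the length correction. ATG3 and ATG5 were called at 6 h only (log2 fold changes 0.13 and 0.18), and ATG3 was at -0.035 and -0.013 under median-ratio scaling and the length correction. ATG5 was at 0.022 and 0.024 under them, and neither call held under spike-in scaling. The ATG3 call ended without 6 h replicate 2, and the ATG5 call without 6 h replicate 2 or 3.

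The 4 ATG8 genes were all called higher at 24 h, where 56.1% of all tested genes were, and differed in their calls at 3 h. GABARAPL1 was at 2.14, 2.23 and 1.84 TPM in the DMSO libraries, 1.97, 3.05 and 2.45 TPM at 1 h and 1.37, 1.39 and 1.31 TPM at 3 h. At 6 h the 3 libraries were at 4.204, 4.55 and 4.57 TPM, and at 24 h at 4.09, 5.35 and 5.18 TPM. The 3 h libraries all lay below the DMSO libraries, and the 6 h and 24 h libraries all lay above them. GABARAPL1 was lower at 3 h (log2 fold change -0.38 ± 0.11 (SE), -0.34 relative to the all-gene median, adjusted p = 0.00616) and higher at 6 h (log2 fold change 0.83 ± 0.11 (SE), 0.71 relative to the all-gene median, adjusted p = 5.16e-06) and 24 h (log2 fold change 0.93 ± 0.11 (SE), 0.70 relative to the all-gene median, adjusted p = 1.91e-06), and all 3 calls held under every scaling. The DMSO libraries had MAP1LC3B at 29.7, 27.6 and 32.5 TPM, the 1 h libraries at 33.2, 35.1 and 34.5 TPM and the 3 h libraries at 36.9, 38.2 and 37.4 TPM. Later values were 42.6, 44.4 and 47.4 TPM at 6 h and 42.5, 42.9 and 42.9 TPM at 24 h. MAP1LC3B, the ATG8 protein most used as a marker of autophagosomes, was higher at all 4 times, with no overlap with DMSO, and most so at 6 h (log2 fold change 0.57 ± 0.055 (SE), 0.45 relative to the all-gene median, adjusted p = 3.43e-07) under every scaling. At 1 h (log2 fold change 0.19) the call ended without DMSO replicate 1 or 2 and without 1 h replicate 2 or 3, and the calls at 1, 3 and 24 h ended under spike-in scaling. GABARAP was at 276, 280.0 and 293 TPM at 24 h, against 191, 193 and 200.3 TPM in DMSO libraries, with no overlap (log2 fold change 0.54 ± 0.038 (SE), 0.31 relative to the all-gene median, adjusted p = 1.80e-08), a call that held under every scaling. GABARAPL2 was at 169.8, 165 and 168 TPM at 24 h, against 120.0, 118 and 119.7 TPM in DMSO libraries (log2 fold change 0.49 ± 0.040 (SE), 0.26 relative to the all-gene median, adjusted p = 8.24e-08), a call that ended under spike-in scaling. Both were called slightly lower at 3 h (log2 fold changes -0.098 and -0.099), calls that ended under each of the other scalings, and for GABARAP also without DMSO replicate 3 or 3 h replicate 3. For GABARAPL2 the 3 h call ended without DMSO replicate 1 or 3 or without 3 h replicate 1 or 3. MAP1LC3B and GABARAPL1 have near copies, so reads could be split between them. MAP1LC3B2 was at 0.550 to 1.24 TPM and GABARAPL3 at 0 to 0.0192 TPM over the 15 libraries.

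The 3 cargo receptors were all called higher at 24 h, as were 56.1% of all tested genes, and their earlier calls were unlike one another. SQSTM1 measured 247, 234 and 247 TPM with DMSO, 320.2, 322 and 324 TPM after 1 h and 482, 487 and 494 TPM after 3 h of KB528. It measured 607, 641 and 666 TPM after 6 h and 282, 288 and 279 TPM after 24 h. The libraries of every treated group lay above those in DMSO, with the 6 h libraries highest. SQSTM1, which links ubiquitinated cargo to ATG8 proteins, was higher at 1 h (log2 fold change 0.41 ± 0.037 (SE), adjusted p = 1.55e-06), 3 h (log2 fold change 1.00 ± 0.037 (SE), 1.04 relative to the all-gene median, adjusted p = 1.68e-11) and 6 h (log2 fold change 1.39 ± 0.037 (SE), 1.27 relative to the all-gene median, adjusted p = 4.16e-13). Between 6 h and 24 h it fell by 1.17 on the log2 scale (adjusted p = 6.33e-12), to a level whose call at 24 h (log2 fold change 0.22 ± 0.037 (SE), adjusted p = 8.60e-05) ended under median-ratio scaling, spike-in scaling and the length correction (-0.0048). The 3 h and 6 h rises and the later fall held under every scaling, and the 1 h call ended under spike-in scaling. In DMSO libraries OPTN stood at 9.37, 8.58 and 10.2 TPM, and in 1 h libraries at 9.69, 9.85 and 9.27 TPM. It stood at 8.79, 8.32 and 8.16 TPM in 3 h, 9.98, 10.5 and 10.9 TPM in 6 h and 27.1, 25.04 and 24.4 TPM in 24 h libraries. The 24 h libraries lay far above all 12 others, whose values ran from 8.16 to 10.9 TPM. OPTN, a receptor for ubiquitinated cargo and damaged mitochondria, was called against DMSO only at 24 h (log2 fold change 1.36 ± 0.064 (SE), 1.13 relative to the all-gene median, adjusted p = 2.50e-10), and the rise between 6 h and 24 h was 1.21 (adjusted p = 6.25e-10). Both held under every scaling. NBR1, a receptor related to SQSTM1 in domain structure, was at 32.2, 30.8 and 34.4 TPM at 3 h and 59.9, 57.5 and 56.4 TPM at 24 h, against 45.3, 38.6 and 43.4 TPM in DMSO libraries. It was lower at 3 h (log2 fold change -0.37 ± 0.060 (SE), adjusted p = 8.29e-05), under every scaling, and higher at 24 h (log2 fold change 0.44 ± 0.060 (SE), adjusted p = 1.17e-05), a call that ended under spike-in scaling.

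The 3 lysosomal membrane proteins were all called higher at 6 h and 24 h, where 44.4% and 56.1% of all tested genes were, and called at neither earlier time. Values of LAMP1 were 125, 117 and 132 TPM in DMSO and 138, 135 and 124 TPM in 1 h libraries. The 3 h libraries held 131, 124 and 137 TPM, the 6 h libraries 144, 146 and 156 TPM and the 24 h libraries 157, 160.4 and 149.8 TPM. The 6 h and 24 h libraries lay above all DMSO libraries. LAMP1, a heavily glycosylated protein of the lysosomal membrane, was higher at 6 h (log2 fold change 0.26 ± 0.055 (SE), adjusted p = 0.000727) and 24 h (log2 fold change 0.32 ± 0.055 (SE), adjusted p = 9.96e-05), both calls ending under spike-in scaling. LAMP2, its relative, was at 20.9, 21.1 and 21.7 TPM at 6 h and 24.1, 23.95 and 22.7 TPM at 24 h, against 16.7, 14.7 and 16.98 TPM in DMSO libraries, with log2 fold changes of 0.38 and 0.52. MCOLN1, the lysosomal calcium channel, was at 35.7, 38.3 and 39.8 TPM at 6 h and 45.5, 45.5 and 42.1 TPM at 24 h, against 28.9, 26.5 and 30.8 TPM in DMSO libraries (log2 fold change 0.61 ± 0.063 (SE), 0.39 relative to the all-gene median, adjusted p = 7.55e-07 at 24 h). For LAMP2 and MCOLN1 no treated library at 6 h or 24 h overlapped DMSO, and the calls at both times held under every scaling.

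The 2 cholesterol export genes moved in opposite directions. NPC1, the membrane protein that passes cholesterol out of the lysosome, averaged 25.2 ± 0.949 TPM at 6 h and 23.5 ± 1.24 TPM at 24 h, against 19.01 ± 2.65 TPM in DMSO libraries. It was higher at 6 h (log2 fold change 0.40 ± 0.078 (SE), adjusted p = 0.000357), under every scaling, and at 24 h (log2 fold change 0.30), where the call ended under median-ratio scaling, spike-in scaling and the length correction. NPC2 was at 146, 141 and 134 TPM in the DMSO libraries, 127, 131 and 131 TPM at 1 h and 122, 134 and 119 TPM at 3 h. At 6 h the 3 libraries were at 112, 124 and 124 TPM, and at 24 h at 122, 126 and 124 TPM. NPC2, the soluble protein that hands cholesterol to NPC1, was lower at 3 h (log2 fold change -0.16 ± 0.051 (SE), adjusted p = 0.0122), 6 h (log2 fold change -0.22 ± 0.051 (SE), adjusted p = 0.00125) and 24 h (log2 fold change -0.17 ± 0.051 (SE), adjusted p = 0.00668). These calls ended under spike-in scaling, and the 3 h call also without DMSO replicate 1 (-0.14) or 3 h replicate 3 (-0.13). Every treated library lay below the DMSO libraries, the second 3 h library only just.

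All 5 proton pump genes were called higher at 24 h and 4 of 5 at 6 h, where 56.1% and 44.4% of all tested genes were. Of the 24 h calls that of ATP6V1H held under every scaling and the other 4 did not. The DMSO libraries had ATP6V1B2 at 32.8, 28.9 and 31.01 TPM, the 1 h libraries at 31.5, 32.8 and 32.8 TPM and the 3 h libraries at 41.97, 41.3 and 40.3 TPM. Later values were 56.4, 54.8 and 56.96 TPM at 6 h and 36.7, 36.6 and 36.99 TPM at 24 h. The 3, 6 and 24 h libraries lay above all DMSO libraries, and the 6 h libraries above all others. ATP6V1B2, a catalytic-sector subunit, was higher at 3 h (log2 fold change 0.41 ± 0.046 (SE), adjusted p = 2.37e-06) and 6 h (log2 fold change 0.84 ± 0.046 (SE), 0.72 relative to the all-gene median, adjusted p = 6.65e-10), and fell by 0.60 on the log2 scale between 6 h and 24 h (adjusted p = 2.60e-08), both the 6 h rise and the fall under every scaling. The 3 h call ended under spike-in scaling and the 24 h call (log2 fold change 0.25) under median-ratio scaling, spike-in scaling and the length correction. ATP6V1H measured 15.98, 15.04 and 17.3 TPM with DMSO, 16.4, 15.6 and 16.1 TPM after 1 h and 17.3, 15.8 and 16.5 TPM after 3 h of KB528. It measured 22.3, 21.8 and 23.4 TPM after 6 h and 26.01, 25.9 and 27.95 TPM after 24 h. ATP6V1H, a subunit that regulates the pump, was higher still at 24 h, with log2 fold changes of 0.46 at 6 h and 0.69 at 24 h (adjusted p = 8.69e-08), no overlap with DMSO at either time and calls that held under every scaling. ATP6V0D1, a membrane-sector subunit, averaged 154 ± 10.3 TPM at 6 h and 137 ± 0.911 TPM at 24 h, against 119 ± 6.86 TPM in DMSO libraries, and was higher at both times (log2 fold changes 0.37 and 0.21). Its 6 h call held under every scaling, and its 24 h call ended under median-ratio scaling, spike-in scaling and the length correction. ATP6AP1, an accessory subunit, was higher at 6 h and 24 h (log2 fold changes 0.19 and 0.39), both calls ending under spike-in scaling. Its 6 h call also ended under median-ratio scaling (0.025) and the length correction, and its 6 h libraries overlapped those in DMSO. ATP6V1A, the subunit that hydrolyses ATP, was lower at 3 h (log2 fold change -0.19), where its libraries overlapped those in DMSO, and higher at 24 h (log2 fold change 0.43 ± 0.060 (SE), adjusted p = 1.35e-05). The 3 h call of ATP6V1A ended without DMSO replicate 1, DMSO replicate 3 or 3 h replicate 1, and both its calls ended under spike-in scaling.

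Among the cathepsins, CTSB fell at 24 h while CTSA and CTSD rose. In DMSO libraries CTSB stood at 359, 349 and 387 TPM, and in 1 h libraries at 381, 387 and 375 TPM. It stood at 384, 371 and 389.5 TPM in 3 h, 369.7, 394 and 409.9 TPM in 6 h and 218, 218 and 219 TPM in 24 h libraries. The 24 h libraries lay close together and below all 12 others. CTSB, a cysteine protease and the second most abundant of the 44 genes in DMSO libraries, was not called against DMSO at 1, 3 or 6 h and was lower at 24 h (log2 fold change -0.74 ± 0.044 (SE), -0.96 relative to the all-gene median, adjusted p = 2.97e-09). The fall between 6 h and 24 h was 0.84 on the log2 scale (adjusted p = 6.24e-10), and both calls held under every scaling. Values of CTSZ were 177, 177 and 188 TPM in DMSO and 181, 185 and 149 TPM in 1 h libraries. The 3 h libraries held 153, 140.2 and 154 TPM, the 6 h libraries 125, 131 and 139.9 TPM and the 24 h libraries 167, 176 and 167 TPM. CTSZ, a cysteine carboxypeptidase, was lower at 3 h (log2 fold change -0.28 ± 0.070 (SE), adjusted p = 0.0033) and 6 h (log2 fold change -0.45 ± 0.070 (SE), -0.57 relative to the all-gene median, adjusted p = 3.69e-05), with no overlap with DMSO, and rose between 6 h and 24 h (log2 fold change 0.36), a step that ended under spike-in scaling. The 3 h and 6 h calls ended under spike-in scaling, and 1 library at 1 h, replicate 3, lay well below its group. CTSD, an aspartic protease, averaged 272 ± 1.22 TPM at 24 h, against 218 ± 14.9 TPM in DMSO libraries (log2 fold change 0.32 ± 0.050 (SE), adjusted p = 3.57e-05). CTSA, a carboxypeptidase that also protects NEU1 and the beta-galactosidase, averaged 143 ± 1.28 TPM at 24 h, against 122 ± 9.97 TPM in DMSO libraries (log2 fold change 0.23). The CTSD call ended under spike-in scaling and the CTSA call under median-ratio scaling, spike-in scaling and the length correction.

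The glycosidases followed 2 courses, a peak at 6 h or a rise at 24 h. GAA was at 4.73, 3.999 and 5.16 TPM in the DMSO libraries, 5.21, 5.31 and 4.62 TPM at 1 h and 4.45, 3.66 and 4.43 TPM at 3 h. At 6 h the 3 libraries were at 5.24, 4.92 and 5.49 TPM, and at 24 h at 8.26, 7.62 and 8.35 TPM. GAA, the acid glucosidase that digests glycogen, was called only at 24 h (log2 fold change 0.69 ± 0.086 (SE), 0.47 relative to the all-gene median, adjusted p = 4.52e-06), with no overlap with DMSO and under every scaling. HEXA, a subunit of beta-hexosaminidase, was at 129.9, 127 and 127 TPM at 24 h, against 90.4, 88.1 and 89.97 TPM in DMSO libraries (log2 fold change 0.51 ± 0.038 (SE), adjusted p = 3.21e-08), a call that ended under spike-in scaling. Its small call at 6 h (log2 fold change 0.093) was at -0.069 under median-ratio scaling and -0.096 under the length correction, and ended without any 1 of the 3 DMSO libraries or without 6 h replicate 2 or 3. GUSB, beta-glucuronidase, whose reads may be shared with its pseudogenes, was higher at 1, 6 and 24 h (log2 fold changes 0.16, 0.16 and 0.44), with the 6 h value at -0.0052 under median-ratio scaling and all 3 calls ending under spike-in scaling, the 6 h call also with the length correction. The 1 h call of GUSB ended without DMSO replicate 1 or 2. NEU1, the lysosomal sialidase, was at 19.8, 20.9 and 21.7 TPM at 6 h, against 13.5, 13.5 and 13.8 TPM in DMSO libraries, and was higher at 1 h (log2 fold change 0.17), 3 h (0.28) and 6 h (log2 fold change 0.58 ± 0.045 (SE), 0.46 relative to the all-gene median, adjusted p = 3.25e-08). At 24 h NEU1 was at 13.4, 13.5 and 13.3 TPM, overlapping the DMSO libraries, and its 1 h and 3 h calls ended under spike-in scaling, the 1 h call also without 1 h replicate 2. GLA, alpha-galactosidase, was at 134, 138 and 143 TPM at 6 h, against 108, 105 and 103 TPM in DMSO libraries (log2 fold change 0.39 ± 0.041 (SE), 0.27 relative to the all-gene median, adjusted p = 7.45e-07), and at 102, 99.2 and 99.5 TPM at 24 h. The 6 h calls of NEU1 and GLA held under every scaling, as did their falls between 6 h and 24 h of 0.60 and 0.46 on the log2 scale. PSAP averaged 499.7 ± 10.4 TPM at 24 h, against 453 ± 27.1 TPM in DMSO libraries, a called log2 fold change of 0.14 that was at -0.047 under median-ratio scaling and -0.081 under the length correction.

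On the deposited scale more of the 43 genes were called between 3 h and 6 h than in the steps before and after, while under median-ratio scaling and the length correction the step between 6 h and 24 h held the most. Between 1 h and 3 h, 3 of 43 rose and 16 fell, where 15.2% and 31.8% of all tested genes did. Without 1 h replicate 2 the number that fell was 10. Between 3 h and 6 h, 32 rose and 2 fell, against 42.3% and 13.7%. Between 6 h and 24 h, 20 rose and 9 fell, against 41.03% and 26.01%. Under median-ratio scaling these steps gave 10 and 12, 20 and 8, and 20 and 11. The shares of all tested genes were then 23.2% and 30.7%, 25.9% and 29.8%, and 41.02% and 30.1%. Under spike-in scaling the steps gave 0 and 5, 37 and 0, and 3 and 7. The all-gene shares were 0.675% and 17.3%, 61.3% and 1.93%, and 13.7% and 16.97%. With the length correction the steps gave 11 and 13, 16 and 7, and 20 and 16. The all-gene shares were 28.3% and 29.1%, 27.2% and 29.7%, and 35.9% and 38.9%. With spike-ins left out of the total the first step gave 8 and 12, against 19.5% and 29.6% of all tested genes. SQSTM1, ATP6V1B2 and NEU1 were the 3 that rose between 1 h and 3 h, while TFEB, ULK1, WIPI1, GABARAPL1 and NBR1 fell in that interval under every scaling, ULK1 by 1.02 on the log2 scale. Of the 3 rises the one of NEU1, of 0.11, ended without any 1 of the 6 libraries compared and was at -0.042 under spike-in scaling. The 2 genes that fell between 3 h and 6 h were ATG16L1 and CTSZ, both at values above 0 under spike-in scaling (0.15 and 0.24), and the CTSZ step ended without 3 h replicate 1 or 3 or without 6 h replicate 1 or 2. The highest group mean lay at 24 h for 23 of the 43 genes and at 6 h for 14, where 43.2% and 26.9% of all tested genes had theirs. The lowest lay at 3 h for 18 and in DMSO for 16, where 31.2% and 26.6% of all tested genes had theirs. For 8 of the 43 genes KB528 was called in opposite directions at 2 times, with the step between them called, which was so for 24.2% of all tested genes. CTSZ and NPC2 were the 2 genes with their highest group mean in DMSO, where 9.16% of all tested genes had theirs.

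**Figure D4:**
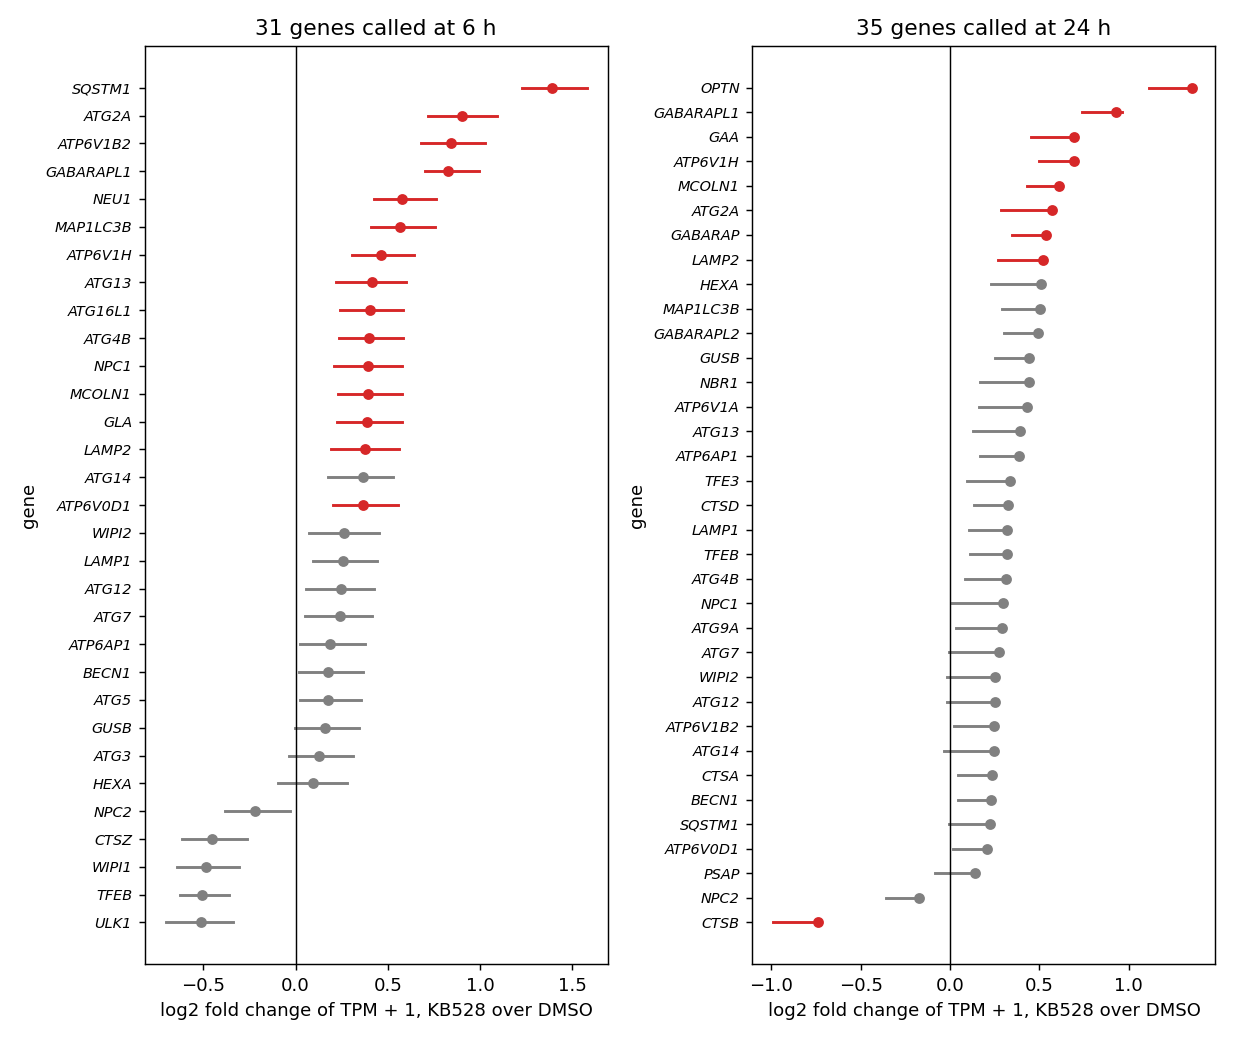
Log2 fold change of TPM + 1 (KB528 over DMSO) of the 31 genes called at 6 h and the 35 called at 24 h; points are the values as deposited, lines run from the lowest to the highest value over 3 other scalings of the libraries and the length correction, and red marks calls kept under all of them. At 6 h, 15 genes led by SQSTM1 are red, and at 24 h 9 genes, OPTN and GABARAPL1 highest and CTSB lowest.

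Other genes of the same pathways, 110 listed by name of which 109 were found and 102 tested, were called as follows. At 1 h 14 were higher and 3 lower, at 3 h 15 and 32, at 6 h 48 and 21 and at 24 h 73 and 12, to be read against the all-gene shares of 15.01% and 7.57% at 1 h, 24.9% and 31.96% at 3 h, 44.4% and 24.5% at 6 h and 56.1% and 15.2% at 24 h. Their medians were 0.055, -0.032, 0.13 and 0.30 on the log2 scale. The 1 h count of higher genes was 29 without DMSO replicate 3, 6 without DMSO replicate 2 and 7 without 1 h replicate 2 or 3, and 7 were lower without DMSO replicate 3. In the same order, 2898, 1042, 1176 and 1275 of 12002 tested genes were then called higher, against 1802 with all libraries. Without DMSO replicate 3, 1022 of all tested genes were lower, against 908. Median-ratio scaling gave 31 higher and 41 lower at 6 h and 49 and 25 at 24 h. The shares of all tested genes were then 32.1% and 38.2%, and 38.5% and 29.04%. Spike-in scaling gave 27 and 2 at 6 h and 17 and 4 at 24 h, against 34.3% and 8.29%, and 20.3% and 5.48%. The length correction gave 40 and 37 at 6 h and 46 and 27 at 24 h, against 36.4% and 35.2%, and 33.5% and 34.1%. At 3 h spike-in scaling gave 0 and 17, the length correction 24 and 32 and leaving out spike-ins 21 and 28. The all-gene shares were 3.42% and 21.02%, 30.5% and 33.6%, and 28.95% and 28.995%. At 1 h spike-in scaling gave 0 and 0 and median-ratio scaling gave 16 and 11, against 2.90% and 1.02%, and 15.4% and 14.8%.

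At 1 h the largest rises in that list were of IDS, a sulfatase (log2 fold change 0.57), NRBF2, a subunit of the lipid kinase complex (0.37), and FNIP1, a partner of folliculin (0.35), and the 3 genes that fell were LAMTOR4 (-0.25), ATP6V1F (-0.23) and ATP6V0B (-0.11). All 6 calls ended under spike-in scaling, and that of ATP6V0B also without DMSO replicate 1 or 2 or 1 h replicate 1 or 2. At 3 h NRBF2 (0.66), the pump subunit ATP6V0A2 (0.64) and TSC1, a brake on mTORC1 (0.48), led the rises, which ended under spike-in scaling. MITF, a transcription factor related to TFEB (-0.98), RRAGD, a GTPase of nutrient sensing at the lysosome (-0.94), and PLA2G15, a lysosomal phospholipase (-0.91), led the falls, which held under every scaling. At 6 h RRAGC (0.83), ATP6V0A2 (0.80) and PLEKHM1, an adaptor for fusion with the lysosome (0.79), rose most. RRAGD (-1.55), PLA2G15 (-1.26) and the channel TPCN1 (-0.54) fell most, and of these 6 calls that of TPCN1 ended under spike-in scaling. At 24 h CTSF (0.92), the sphingomyelinase SMPD1 (0.89) and the mannosidase MAN2B1 (0.88) rose most, and PLA2G15 (-0.85), TPCN1 (-0.51) and the protease LGMN (-0.49) fell most, all 6 under every scaling.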

How the data were processed

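Strand-specific poly(A) RNA sequencing of RPMI-8226 cells gave 15 libraries, 3 in each of 5 groups, mapped to groups from the labels. The 3 control columns of the table are named as untreated at 0 h, while the labels name DMSO, and were matched by time and replicate number. The authors deposited 1 table of TPM values per gene, with spike-in rows. Per the submitters' processing notes, STAR, featureCounts, FastQC, MultiQC and the hg19 build were used, with versions not given in the sources used here. TPM keep no depth, so a gene's TPM also depends on all other transcripts in the library, and total depth is unknown.

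From these, log2(TPM + 1) was fitted in limma 3.58.1 (R 4.3.3) with group as the only term and an empirical Bayes trend, for 12002 genes averaging 1 TPM or more, leaving out 92 spike-in rows. P-values were Benjamini-Hochberg adjusted within each comparison over all tested genes, with a threshold of 0.05. All fold changes of low genes are understated by the pseudocount of 1. The main limma fit, in its comparisons with DMSO, was tested on simulated data. The other scalings, the F test and the promoter search were not. Alternatives were a pseudocount of 0.1, a filter at 5 TPM or none, median-ratio scaling, scaling to the spike-in sum, rescaling without spike-ins, a replicate block, leaving out each library and, added after the data had been seen, a correction for transcript length (11700 genes with a length, 97.5%). Summaries and figures used Python 3.11.15, numpy 2.4.6, pandas 2.3.3 and matplotlib 3.10.9. Promoter sequences came from RefSeq on GRCh38.p14, not the build of the TPM table. The genes, the other pathway lists and the markers were chosen with earlier results of these data known. All 44 genes are named, and of the pathway list the 3 largest called changes in each direction at each time.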

Additional observations from a re-analysis of the deposited data

Results flagged for a closer look

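For 8 of the 43 tested genes the effect of KB528 was called in opposite directions at 2 times, in 10 pairs of times, where 24.2% of all tested genes had such a pair. The genes were picked by these opposite calls and the effects share the same DMSO libraries, so a p-value for the difference would restate the choice and none is given. TFEB was higher at 24 h and lower at 3 h, a difference of 1.18 on the log2 scale (SE 0.12). It was also lower at 6 h, and its 24 h minus 6 h difference was 0.83. GABARAPL1 was higher at 24 h than at 3 h by 1.31 (SE 0.11), and higher at 6 h than at 3 h by 1.21. The 24 h minus 3 h difference was 0.82 for NBR1, 0.71 for ATG9A, 0.63 for GABARAP, 0.62 for ATP6V1A, 0.59 for GABARAPL2 and 0.57 for TFE3. At 3 h the libraries of GABARAPL2 and ATP6V1A overlapped those in DMSO, and at the other times of these pairs no treated library did. The number of such pairs was 6 without DMSO replicate 1. The calls at 1 time that ended under other scalings or without single libraries, given above for TFEB, TFE3, GABARAP, GABARAPL2, ATG9A, NBR1 and ATP6V1A, apply to these pairs too. Both pairs of GABARAPL1 held under every scaling, and under spike-in scaling they were the 2 pairs left.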

How the results depend on the processing

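Over the gene results named, a pseudocount of 0.1 kept all 202 calls, a filter at 5 TPM 183 of 185, no filter 196 of 202, leaving out spike-ins 191, median-ratio scaling 163, the length correction 158 and spike-in scaling 93. Leaving out a library kept 1106 of 1212. Counts that moved by over 1.5 times follow, as the number of the 43 genes called higher and lower, and the cause was not tested except where a setting tests fewer genes. The shares of all tested genes under the same scalings are given in the Results. Under spike-in scaling they were 0 and 0 at 1 h, 1 and 6 at 3 h, 16 and 0 at 6 h, 8 and 1 at 24 h, 0 and 5 for 1 h to 3 h, 37 and 0 for 3 h to 6 h and 3 and 7 for 6 h to 24 h. Under median-ratio scaling they were 7 and 1 at 1 h, 18 and 8 at 6 h, 20 and 8 at 24 h, 10 and 12 for 1 h to 3 h and 20 and 8 for 3 h to 6 h. With the length correction they were 7 and 1 at 1 h, 18 and 12 at 3 h, 18 and 10 at 6 h, 19 and 9 at 24 h, 11 and 13 for 1 h to 3 h, 16 and 7 for 3 h to 6 h and 20 and 16 for 6 h to 24 h. Without spike-ins in the total they were 17 and 10 at 3 h and 8 and 12 for 1 h to 3 h, and with no filter 1 gene fell between 3 h and 6 h. The 10 pairs of times with opposite calls were 5 with the filter at 5 TPM, which does not test the 4 pairs of TFEB and GABARAPL1 and under which the 3 h call of GABARAPL2 ended, and 2 under spike-in scaling. For the 102 pathway genes spike-in scaling gave 0 and 0 at 1 h, 0 and 17 at 3 h, 27 and 2 at 6 h and 17 and 4 at 24 h. Median-ratio scaling gave 16 and 11 at 1 h, 31 and 41 at 6 h and 49 and 25 at 24 h. The length correction gave 15 and 5 at 1 h, 24 and 32 at 3 h, 40 and 37 at 6 h and 46 and 27 at 24 h. Leaving out spike-ins gave 5 lower at 1 h, where 8.32% of all tested genes were.

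Leaving out each library in turn gave 5 to 14 higher and 0 lower at 1 h, 7 to 14 and 8 to 14 at 3 h, 23 to 32 and 5 to 7 at 6 h and 31 to 33 and 2 at 24 h. The steps gave 2 to 3 and 10 to 14, 26 to 33 and 1 to 2, and 17 to 21 and 7 to 9. The count by the F test was 41 to 43, that of opposite calls 6 to 14. The pathway list gave 6 to 29 and 2 to 7 at 1 h, 11 to 20 and 27 to 35 at 3 h, 41 to 50 and 17 to 23 at 6 h and 66 to 73 and 9 to 13 at 24 h. The single libraries that moved a count by over 1.5 times were DMSO replicate 3 (14 higher at 1 h and at 3 h), DMSO replicate 1 (6 pairs with opposite calls), 1 h replicate 2 (10 lower for 1 h to 3 h), and 3 h replicate 1 or 3 and 6 h replicate 1 or 2 (1 lower for 3 h to 6 h). For the pathway list at 1 h they were DMSO replicate 3 (29 higher and 7 lower), DMSO replicate 2 (6 higher) and 1 h replicate 2 or 3 (7 higher).

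Log2 fold changes against DMSO that changed sign were ATG13 at 3 h under spike-in scaling (-0.025), and at 6 h under median-ratio scaling ATG3 (-0.035), HEXA (-0.069) and GUSB (-0.0052), and with the length correction ATG3 (-0.013) and HEXA (-0.096). At 24 h PSAP was at -0.047 under median-ratio scaling, and with the length correction PSAP was at -0.081, ATG14 at -0.031, WIPI2 at -0.018, ATG12 at -0.015, ATG7 at -0.0057 and SQSTM1 at -0.0048. Between times, HEXA was at 0.011 for 1 h to 3 h and -0.055 for 3 h to 6 h with the length correction. Median-ratio scaling gave, for 3 h to 6 h, BECN1 at -0.038, GABARAP at -0.037, CTSD at -0.0053 and HEXA at -0.0048. Spike-in scaling gave NEU1 at -0.042 for 1 h to 3 h, ATG16L1 at 0.15 and CTSZ at 0.24 for 3 h to 6 h, and LAMP2 at -0.054, ATP6AP1 at -0.0071 and PSAP at -0.0028 for 6 h to 24 h.

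Deviations of same-numbered libraries from their group means correlated at -0.29 to 0.63 over 30 pairs of libraries (median 0.011, 9 over 0.1), and those of differently numbered ones at -0.67 to 0.34 over 60 (median -0.019, 13 over 0.1). Not every same-numbered pair was over 0.1, so the numbers were not taken as pairs. With the replicate block 196 of 202 gene calls were kept, 1 gene fell between 3 h and 6 h, and no other count moved by over 1.5 times. Depth is unknown in absolute terms, and the lowest tested genes, TFEB and GABARAPL1, rest on the fewest reads.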

Other observations

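The 3 genes of the pathway list that led the falls at 3 h had these levels. The DMSO libraries had MITF at 6.33, 4.99 and 6.43 TPM, the 1 h libraries at 6.93, 7.18 and 6.82 TPM and the 3 h libraries at 2.45, 2.26 and 2.75 TPM. Later values were 4.11, 4.004 and 4.07 TPM at 6 h and 5.76, 5.79 and 5.903 TPM at 24 h. MITF, which belongs to the same factor family as TFEB and TFE3, was below every DMSO library at 3 h and 6 h. Its 6 h call (log2 fold change -0.44) ended under spike-in scaling. RRAGD measured 8.34, 7.24 and 8.56 TPM with DMSO, 7.07, 7.25 and 7.08 TPM after 1 h and 3.76, 3.77 and 3.55 TPM after 3 h of KB528. It measured 1.99, 2.09 and 2.17 TPM after 6 h and 5.71, 5.57 and 6.41 TPM after 24 h. RRAGD was lowest at 6 h, and RRAGC, of the same GTPase family, was at 22.96, 22.6 and 23.7 TPM at 6 h, against 12.6, 11.8 and 13.4 TPM in DMSO libraries. The call of RRAGD as lower at 24 h (log2 fold change -0.39) ended under spike-in scaling. In DMSO libraries PLA2G15 stood at 83.9, 82.96 and 90.8 TPM, and in 1 h libraries at 80.6, 82.2 and 82.8 TPM. It stood at 46.01, 43.7 and 45.9 TPM in 3 h, 33.9, 35.6 and 36.6 TPM in 6 h and 45.6, 46.4 and 49.5 TPM in 24 h libraries. PLA2G15 stayed below the DMSO libraries at 24 h.

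Of 29 other lysosomal enzymes, 9 were higher and 5 lower at 6 h, and 24 were higher and 3 lower at 24 h, where 44.4% and 24.5% of all tested genes were called at 6 h and 56.1% and 15.2% at 24 h, with medians of 0.047 and 0.44 on the log2 scale. Of 18 genes of nutrient signalling at the lysosome, 11 were higher and 3 lower at 6 h, and 13 were higher and 1 lower at 24 h, against the same shares. Of 12 other pump genes, 1 was higher and 5 lower at 3 h, where 24.9% and 31.96% of all tested genes were, and 9 were higher and 3 lower at 24 h. Of 24 other autophagy genes, 15 were higher and 4 lower at 6 h and 17 and 1 at 24 h, with medians of 0.16 and 0.24. Of 19 other genes of the lysosomal membrane and of sorting, 7 were higher and 6 lower at 6 h and 10 and 4 at 24 h, with medians of 0.029 and 0.16. The all-gene medians were 0.12 and 0.23. These counts for parts of the pathway list are on the deposited scale only. At 6 h replicate 1 was the lowest of its group for 35 of the 43 genes and replicate 3 the highest for 38. Among DMSO libraries replicate 2 was the lowest for 33. This order was not counted over all tested genes. The log2 factors of median-ratio scaling, taken from well expressed genes of the whole table, ran the same way. They were 0.038, 0.073 and 0.14 for 6 h replicates 1 to 3 and -0.046, -0.17 and -0.027 for DMSO replicates 1 to 3.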
